A study of Drosophila melanogaster with 2 samples.

Results

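The far intergenic peaks of the CG10959-eGFP fusion protein are sites of ChIP-seq enrichment in DNA that belongs to no gene and lies a long way from any transcription start site (TSS). They were taken from the deposited peak list that passed the irreproducible discovery rate (IDR) threshold, as peaks whose summit lay inside no gene and more than 5000 bp from the nearest TSS of any gene, with transposable elements and pseudogenes not counted as genes. This gave 259 of the 3417 peaks on the 6 chromosome arms, or 7.58% (95% Wilson interval 6.74 to 8.52%). The samples were whole Drosophila melanogaster embryos aged 0 to 8 h from the strain CG10959-GFP, a transgenic line with an insertion that expresses CG10959 fused to eGFP, and an antibody against GFP was used for the precipitation. There were 2 biological replicates, replicate 1 and replicate 2, and no second condition. No unfused strain or untagged embryo was analysed here, and whole embryos mix all cell types. Peaks are called far001 to far259 here, in falling order of the deposited signal, which is the authors' measure of strength relative to a control library on a scale that is not given in the sources used here. With 2 libraries of 1 group no test over samples was possible, so each comparison with the rest of the list is a description, intervals cover the sampling of peaks only, and each library's own list is given beside the pooled one where it can be.

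Intergenic DNA far from start sites in flies holds enhancers, which switch on genes from a distance, insulators, which limit which genes an enhancer can reach, silencing elements and repeats. Genes that pattern the embryo, such as homeobox and segment polarity genes, often sit beside long stretches of such DNA that drive them in stripes or in the nervous system. CG10959 is an uncharacterized protein in RefSeq. Its RefSeq coding sequence translates to 443 amino acids with 9 matches to the spacing of cysteines and histidines in C2H2 zinc fingers, a fold that commonly binds DNA.

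A 6-base word, CACTGA, stood in a regular arrangement around the summits, and was chosen after the sequences had been seen. The clearest cases carry the word on the left of the summit and its reverse complement, TCAGTG, on the right, so that both copies read toward the middle. The 4 strongest peaks of this kind, all in both replicates' lists, are printed with 100 bases on either side of the summit, from the plus strand of the RefSeq copy of the dm6 genome, with CACTGA and TCAGTG in capitals:
far013, chrX:21593977-21594177, between lncRNA:CR44711 and GCS2alpha: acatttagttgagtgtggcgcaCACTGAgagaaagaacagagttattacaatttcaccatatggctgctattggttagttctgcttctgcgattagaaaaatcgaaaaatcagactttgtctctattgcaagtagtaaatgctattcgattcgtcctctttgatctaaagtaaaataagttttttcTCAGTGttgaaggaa
far027, chr3L:9025782-9025982, between Doc2 and lncRNA:CR46451: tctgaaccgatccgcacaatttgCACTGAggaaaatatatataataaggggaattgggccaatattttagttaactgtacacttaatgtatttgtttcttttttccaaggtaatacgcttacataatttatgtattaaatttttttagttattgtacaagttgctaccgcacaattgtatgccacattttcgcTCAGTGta
far044, chr2L:14701606-14701806, between osp and CG15282: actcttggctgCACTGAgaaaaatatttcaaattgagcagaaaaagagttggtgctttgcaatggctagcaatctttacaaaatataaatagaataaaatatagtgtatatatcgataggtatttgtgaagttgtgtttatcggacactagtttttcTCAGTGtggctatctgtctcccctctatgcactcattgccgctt
far057, chr2L:9594973-9595173, between CG3841 and CG4382: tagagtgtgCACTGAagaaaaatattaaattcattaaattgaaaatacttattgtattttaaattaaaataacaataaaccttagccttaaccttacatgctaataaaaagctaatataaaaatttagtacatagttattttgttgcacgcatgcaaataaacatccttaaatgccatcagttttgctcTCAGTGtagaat
In far013 the 2 copies were 164 bp apart, and in far027, far044 and far057 they were 170, 146 and 180 bp apart. GC content in the 50 bp to either side of the summit was 34.7% in far013, 23.8% in far027, 30.7% in far044 and 22.8% in far057.
Other strong peaks looked different, and 4 are printed in the same way. In far006 the capitals mark the shorter word CACTG and its reverse complement CAGTG, 1 on each side and reading toward the summit. The stronger peak far004 also has 1 on each side, but there both read away from the summit. In far003 nothing is in capitals, since the window holds neither word. In far007 they mark 4 copies of AGGTGG on the same strand:
far004, chr3L:724626-724826, between lncRNA:CR45411 and lncRNA:CR43785: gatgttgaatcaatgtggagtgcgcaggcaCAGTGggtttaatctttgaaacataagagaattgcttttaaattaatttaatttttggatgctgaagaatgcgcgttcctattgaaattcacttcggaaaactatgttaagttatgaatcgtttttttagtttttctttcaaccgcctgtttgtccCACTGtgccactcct
far006, chr3L:11416874-11417074, between lncRNA:CR44363 and CG7560: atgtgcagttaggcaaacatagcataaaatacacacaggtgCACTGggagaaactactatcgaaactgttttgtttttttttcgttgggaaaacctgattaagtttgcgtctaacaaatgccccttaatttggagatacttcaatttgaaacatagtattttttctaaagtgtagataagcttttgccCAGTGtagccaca
far003, chr3L:18281333-18281533, between CheA75a and CG5103: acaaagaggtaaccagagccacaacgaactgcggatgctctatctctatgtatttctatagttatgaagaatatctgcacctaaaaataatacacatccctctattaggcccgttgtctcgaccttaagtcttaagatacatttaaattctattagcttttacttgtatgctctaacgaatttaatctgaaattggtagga
far007, chr2L:20120970-20121170, between CG13970 and CG10651: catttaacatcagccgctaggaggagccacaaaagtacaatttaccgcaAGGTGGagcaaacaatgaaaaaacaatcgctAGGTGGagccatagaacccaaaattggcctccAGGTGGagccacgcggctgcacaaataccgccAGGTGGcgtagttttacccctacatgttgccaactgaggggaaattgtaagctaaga

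The word CACTGA occurred within 150 bp of the summit 113 times in the 259 far intergenic peaks, and 87 of these copies (77.0%, interval 68.4 to 83.8%) read toward the summit, 5′ to 3′. Between 150 and 500 bp from the summit the orientation was even, with 45 of 88 copies (51.1%, interval 40.9 to 61.3%) reading toward it. Copies near the same summit are not independent, so these intervals are too narrow. The share was highest at 50 to 100 bp, where 42 of 49 copies read inward. Each library's own list of far intergenic peaks gave the same picture: 56 of 66 copies (84.8%) read inward in replicate 1 and 53 of 67 (79.1%) in replicate 2. Among the peaks found in both lists the count was 43 of 50 (86.0%), and among those in neither list it was 25 of 37 (67.6%).

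The same arrangement was present elsewhere in the list, so it is not a property of far intergenic peaks alone. Across all other peaks 614 of 849 copies within 150 bp (72.3%, interval 69.2 to 75.2%) read inward. The classes closest in setting gave 78.9% at near intergenic peaks (500 to 5000 bp from a TSS, in no gene), 78.5% at far genic peaks (over 5000 bp from a TSS, in a gene), 74.2% at near genic peaks and 64.5% at promoter peaks (within 500 bp of a TSS). Candidate peaks in far intergenic DNA that did not pass the IDR threshold gave 1151 of 2407 copies (47.8%, interval 45.8 to 49.8%). The number of peaks with a copy differed more between classes, and this difference was not tested: 68 of 259 far intergenic peaks (26.3%) had an inward copy within 150 bp, against 17.4% of all other peaks, 23.1% of near intergenic peaks, 21.8% of far genic peaks, 18.6% of near genic peaks, 13.2% of promoter peaks and 6.72% of the far intergenic candidates below the threshold. Outward copies were carried by 9.65% of far intergenic peaks and 7.09% of all other peaks. Inward copies on both sides were carried by 13 far intergenic peaks (5.02%), against 1.55% of all other peaks, 2.86% of near intergenic, 1.57% of far genic, 2.30% of near genic and 0.599% of promoter peaks. The nearest copies of such a pair at far intergenic peaks were 73 to 206 bp apart, with a median of 161 bp.

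**Figure D1:**
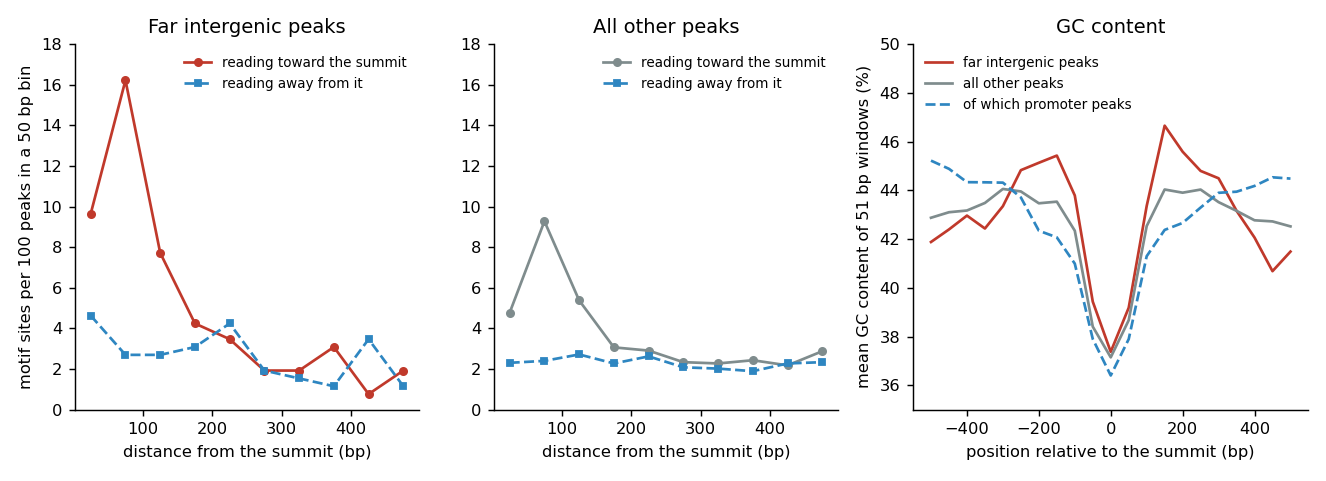
The left and middle panels plot copies of the 6-base word per 100 peaks (vertical axis) in 50 bp bins of distance from the summit (horizontal axis), for far intergenic peaks and for all other peaks, with copies that read toward the summit as solid lines and copies that read away as dashed lines. At 50 to 100 bp there were 16.2 inward and 2.70 outward copies per 100 far intergenic peaks, against 9.28 and 2.41 per 100 other peaks. The right panel plots mean GC content of 51 bp windows by position relative to the summit, which was lowest at the summit in each set drawn.

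The letters next to inward copies were also shared. Of the 87 inward copies at far intergenic peaks, 75 were followed by G or A and 54 (62.1%) by G or A and then a further A. A run of 3 A was present in the 8 bases after the word in 62 of them (71.3%). The outward copies within 150 bp had G or A and then A in 4 of 26 (15.4%), and copies between 150 and 500 bp had it in 20 of 88 (22.7%). At all other peaks the shares were 57.0% inward, 25.5% outward and 22.2% farther out. Repeat masking of the reference covered 34 of the 87 inward copies (39.1%), 1 of the 26 outward ones and 11 of the 88 farther out. Longer words that start with CACTGA had a larger share of their copies at a peak. They add letters common beside inward copies at peaks, so a larger share is at least partly built in. Other extensions of CACTGA were not compared. Far intergenic DNA as a whole held 8421 copies of CACTGA, of which 111 (1.32%) were within 150 bp of a far intergenic summit, 647 copies of CACTGAGA, of which 38 (5.87%) were, and 111 copies of CACTGAGAGAAA, of which 16 (14.4%) were. The DNA within 150 bp of these summits makes up 0.374% of far intergenic DNA.

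For members with an inward copy within 150 bp the median signal was 119.1 (quartiles 90.0 to 169.9, 68 members), against 113.4 (89.3 to 179.4) for the 191 without, and 33 of them (48.5%) were in both replicates' lists, against 37.7% of those without. The summit window reaching 50 bp to either side held CACTGA in 3 of the 50 strongest members (6%), against 30 of the other 209 (14.4%). For the shorter word CACTG, counted with the copies that are part of CACTGA, the inward share was lower. Within 150 bp 198 of 311 copies (63.7%, interval 58.2 to 68.8%) read inward at far intergenic peaks and 53.4% (51.7 to 55.1%) at all other peaks. Between 150 and 500 bp the shares were 47.5% and 52.5%. Copies of CACTG not followed by A were not counted apart, so no inward bias of CACTG itself is shown.

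Counted without regard to direction in windows that reach 50 bp to either side of the summit, CACTGA was in 33 of 259 far intergenic peaks (12.7%), against 3.09% of windows 300 bp to either side. At all other peaks the shares were 6.62% at the summit and 4.23% at the sides, and 3.88% of all windows of this length in far intergenic DNA held it. Of the 21 motifs listed for the search, read on both strands, 7 were in more summit windows than windows on either side. The summit was 1 of 3 windows compared for each motif. About 7 of 21 motifs would thus lead at the summit with no preference for it, and the count is not a result. TATAAA, the TATA box, which positions the transcription machinery at some promoters, was in 43 peaks (16.6%), against 9.65% of side windows and 12.2% of all far intergenic windows. At all other peaks TATAAA was in 18.2% of summit windows and 10.6% of side windows. The word holds only A and T, and summits were poorer in G and C than their sides. TCAGTT, an initiator sequence, was in 26 of 259, against 4.63% of side windows and 6.01% of all far intergenic windows. At all other peaks TCAGTT was in 5.98% of summit windows and 6.57% of side windows. This word shares the letters TCAGT with the reverse complement of CACTGA, and 4 far intergenic summit windows held both. The CTCF core AGNNGGCGC was in 7 (2.70%), against 2 of 518 side windows (0.386%) and 0.573% of all far intergenic windows; CTCF is an insulator protein. At all other peaks AGNNGGCGC was in 2.47% of summit windows and 1.28% of side windows. It was in 5.24% of near intergenic and 3.82% of far genic summit windows, against 1.55% and 0.787% of their side windows. The pentamer GAGAG, bound by the factor Trl, was in 8.49% of summits and 11.4% of side windows. The heptamer AGATAAG, bound by zinc finger factors such as serpent and pannier, was in 1 summit window and in 2.32% of side windows. CAGGTAG, the word bound by the early activator Zelda, was in none of the 259. The other motifs in more summit windows than on either side differed little or were rare. The Caudal site TTTATNG was in 28, against 23 on the left and 25 on the right. The BEAF-32 word CGATA was in 27, against 25 and 26. The A tract AAAAAAAA was in 20, against 16 and 9, and the su(Hw) core TGCATACT in 2, against 0 and 0. The Pho core GCCAT, tied to Polycomb response elements, was in 48 (18.5%), against 22.6% of side windows and 18.8% of all far intergenic windows. The homeodomain site TAATTA was in 13 (5.02%), against 7.14% of side windows, and the E-box words gave CAGCTG in 7 windows, while CATATG was in 10 and another, CACGTG, in 3. The remaining words were in 0 to 6 summit windows each: the DRE core TATCGATA, the promoter word GGTCACAC, the repeat CACACACA, the longer repeat GAGAGAG that contains GAGAG, the POU octamer ATTTGCAT and the AP-1 site TGANTCA. Matches are descriptions of letters and not of bound factors.

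The summits were also poorer in G and C than their sides on average. The difference was larger in members found in both replicates' lists than in the others. Mean GC content of these windows was 37.7% at far intergenic summits and 44.0% at 300 bp to either side, and all other peaks had 37.4% and 43.8%. The gap between summit and sides was -6.29 percentage points over the 259 and -13.6 over the members in both replicates' lists, with -12.1 in the list of replicate 1 and -9.85 in that of replicate 2. Far intergenic candidates below the threshold went the other way, with 46.2% at the summit and 42.0% at the sides. Only 2 of the 21 strongest members had over 50% GC at the summit: far007 had 54.5% and far018 had 55.4%. Many weaker members also exceeded 50%, 1 of them with 64.4%.

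The strongest far intergenic peak, far001, lay on 2R at chr2R:13035210-13035461 in the gap between Su(z)2, a Polycomb group gene, and CG13323. Its signal was 945.4 in the pooled list, with 458.2 in replicate 1 and 479.8 in replicate 2. On the same arm, far011 lay between CG13321 and Psc, the Polycomb group neighbour of Su(z)2, with 360.1 in the pooled list, 96.4 in replicate 1 and 155.4 in replicate 2. Peaks far002 and far004 on 3L both lay in the gap between the long non-coding RNA genes lncRNA:CR45411 and lncRNA:CR43785, at chr3L:725893-726148 and chr3L:724604-724884, with pooled signals of 722.6 and 657.4. Replicate 1 gave 338.7 and replicate 2 gave 377.9 for far002, and they gave 328.6 and 304.3 for far004. Peak far003, at chr3L:18281314-18281573 between CheA75a and CG5103, had 712.7 in the pooled list, 354.2 in replicate 1 and 346.1 in replicate 2. Peak far005, at chr2R:13566251-13566480 between CG13334 and CG42807, had 642.6, 340.5 and 304.1. These 5 peaks stood above 300 in each library, and no other far intergenic peak did.

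The rest of the 20 strongest had pooled signals from 308.4 to 495.6, and all 50 strongest were in both replicates' lists. Of these, 4 formed a tight cluster in the 19.1 kb gap between lncRNA:CR44363 and CG7560 on 3L: far006 with 495.6, far008 with 418.3, far012 with 359.1 and far017 with 319.3, within 2854 bp. Peak far007 lay between CG13970 and CG10651 and read 152.8 in replicate 1 and 289.3 in replicate 2. Peak far010, beside the homeobox gene oc, had 367.9, and far016, beside the T-box gene mid, had 328.2. Peak far014 lay between sens-2 and Rca1 with 350.2, far019 beside the homeobox gene ems with 310.7, and far018 between soti and cv-c with 315.9. The others lay beside pxb (far009, 388.2), GCS2alpha (far013, 356.3), a pair of long non-coding RNA genes on X (far015, 346.5) and hng3 (far020, 308.4).

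Genes that pattern the embryo or drive neural fate had a far intergenic peak beside them more often than other genes, over lists chosen with earlier results of these data known. Of the 92 genes on any of 6 developmental lists that border a gap with far intergenic DNA, 29 (31.5%, interval 22.9 to 41.6%) had a far intergenic peak in that gap, against 200 of 1757 other protein-coding genes (11.4%, 9.98 to 13.0%). In replicate 1 the shares were 25% and 5.52%, and in replicate 2 they were 25% and 6.89%. Neighbouring genes can share 1 gap and its peaks, so genes are not independent and these intervals are too narrow. Counted by gap, 29 of 116 gaps beside a listed gene (25%) held a far intergenic peak, against 141 of 1304 other gaps (10.8%). The gaps beside a listed gene were not much longer, with a median of 13.8 kb against 13.0 kb for the gaps beside no listed gene. Per length of far intergenic DNA, and without the 5 Mb next to the centromere of each large arm, the gaps beside listed genes held 51 peaks at 44.6 per Mb, against 182 peaks at 19.4 per Mb in the other gaps. In the same DNA the density of candidate peaks before thresholding was 1139 against 1108 per Mb. The 52 peaks in gaps beside a listed gene had a median signal of 135.3, against 105.4 for the other 207, and 29 (55.8%) were in both replicates' lists, against 36.7%.

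The lists gave unequal shares, whose differences were not tested. Among neural transcription factor genes 7 of 12 had a far intergenic peak, among segment polarity and signalling ligand genes 9 of 20, among homeobox genes other than Hox genes 12 of 46, and among gap and pair-rule genes 3 of 13. The 12 include ftz, which lies among the Hox genes but was not listed with them. No Hox gene (0 of 3) and no mesoderm or GATA factor gene (0 of 6) had one, but with so few genes bordering far intergenic DNA the intervals reach 56.1% and 39.0%. The 0 of 6 also rests on the neural list holding Doc1, Doc2 and Doc3, of which Doc2 is known for the dorsal ectoderm and heart precursors and not as a neural gene. With the Doc genes moved to the mesoderm list, a choice made after the data were seen, the neural list gave 6 of 11 genes and the mesoderm list 1 of 7. Axon guidance and adhesion families gave 7 of 49 (14.3%), chemoreceptor genes 4 of 42 (9.52%), ion channel and neurotransmitter receptor genes 1 of 24 (4.17%), cytoplasmic ribosomal protein genes 1 of 7, insulator and architectural protein genes 0 of 1 and microRNA genes 2 of 8. Long non-coding RNA genes, many of which lie in such gaps, gave 94 of 547 (17.2%, interval 14.3 to 20.6%).

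**Figure D2:**
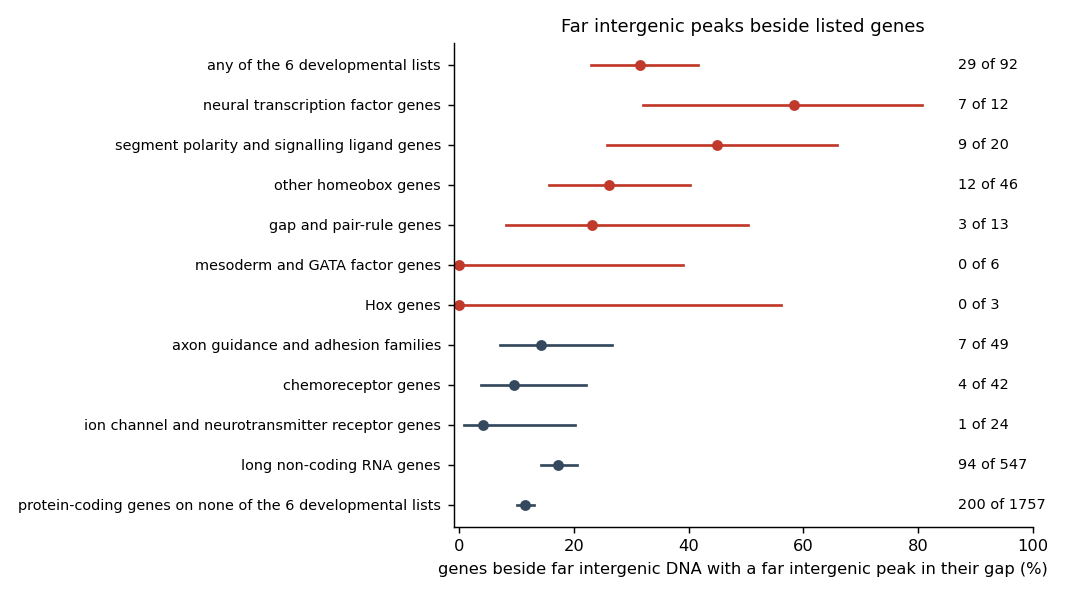
The horizontal axis gives the share of genes bordering far intergenic DNA that had a far intergenic peak in their gap, in percent, with points for the share, lines for 95% Wilson intervals and counts at the right. The 6 developmental lists and their union are in red, above the other lists in dark blue; 29 of 92 developmental genes had a peak, against 200 of 1757 other protein-coding genes.

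On the neural list, mid, which specifies cell identity in the ventral nerve cord, had 2 peaks with signals of 328.2 and 158.4. SoxN, a Sox gene of the early neuroectoderm, had 3, of which the strongest, far021, read 165.0 in replicate 1 and 130.5 in replicate 2. Doc2, a T-box gene of the dorsal embryo and heart precursors, had 4, with pooled signals of 289.3, 288.0, 186.0 and 77.1. The weakest of these, far237, had 27.4 in replicate 1 and 52.3 in replicate 2 and was not in both lists. D, also called Dichaete, had 2 peaks with the strongest at 180.6. Among homeobox genes, oc, which patterns the head, had 4 peaks on both of its sides at 367.9, 261.3, 193.5 and 130.1. All 4 were in both replicates' lists. The head gap gene ems had 4, at 310.7, 175.6, 118.2 and 103.7, Dr had 4 with the strongest at 295.2, and vvl, a POU domain gene, had 2 with the strongest at 237.9. The pair-rule and gap list gave odd at 229.7, opa at 158.9 and ftz at 101.2. Among signalling genes, ptc, the Hedgehog receptor, had 1 peak at 232.7, the gap between the FGF ligand genes pyr and ths had 1 at 221.6, and the gap between Wnt4 and wg, both of which encode Wnt ligands, had 4 at 173.5, 159.9, 124.5 and 112.2. In the Wnt4 to wg gap the strongest peak, far067, read 118.1 in replicate 1 and 72.7 in replicate 2. Outside the developmental lists, dpr17, a neural adhesion gene, had 1 peak at 293.4, the odorant receptor gene Or85b 1 at 154.6, nAChRalpha5 1 at 121.9 and RpL5 2 with the strongest at 102.3.

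Many far intergenic peaks shared a gap between genes. They fell in 170 of the 1420 gaps that hold far intergenic DNA, and 146 of the 259 shared a gap with another: 34 gaps held 2, 14 held 3 and 9 held 4. Gaps with a peak were longer, with a median of 22312 bp against 13160 bp for all gaps with far intergenic DNA. Longer gaps have more room for peaks, so both the longer median and the shared gaps are partly built in. Nothing was counted for comparison, so grouping beyond gap length was not tested. In the gap between CG43336 and pxb the signals were 388.2, 208.7, 178.3 and 152.7, and all 4 peaks were in both replicates' lists. The gap between CG43402 and CG31928 had 293.1, 275.8, 230.2 and 92.5, the last of them not in both lists. The long gap between NijA and CG43245 had 1 peak in both lists, at 242.3, and 3 that were not, at 123.9, 116.6 and 93.5. The other gaps with 4 lay between Syx7 and the forkhead gene croc, between lncRNA:CR44552 and the homeobox gene mirr, and between mIF2 and the forkhead gene fkh; none of the peaks beside mirr or fkh was in both lists. The summit of another listed peak lay within 400 bp of 18 members, and 18 shared a replicate's peak with another listed peak.

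**Figure D3:**
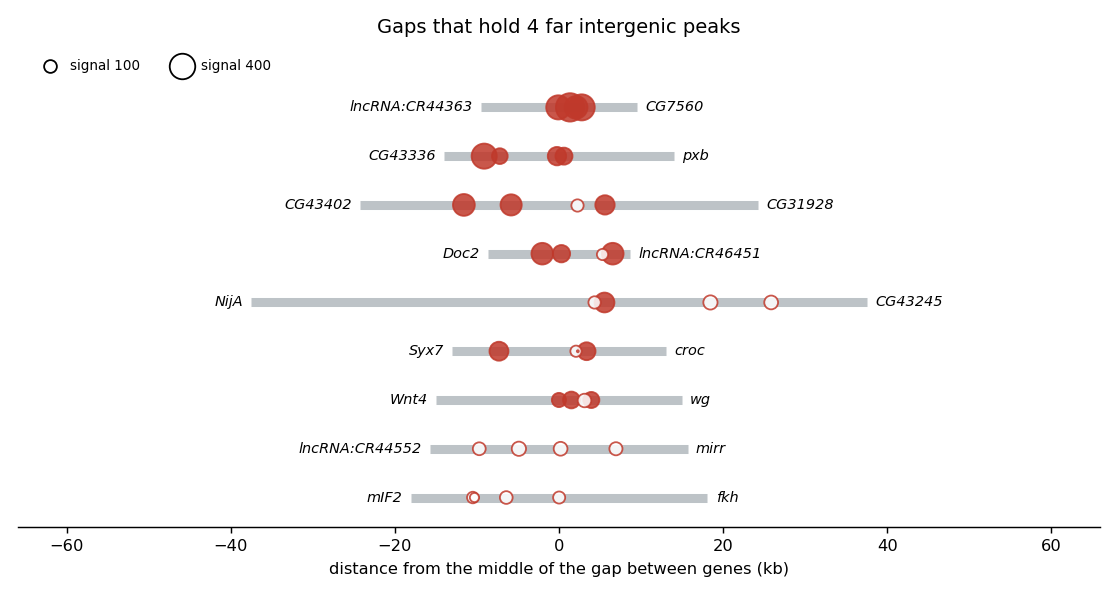
Each grey bar is 1 of the 9 gaps between genes that hold 4 far intergenic peaks, drawn to scale by distance from its middle in kb, with the genes at its ends. Circles are peaks with area in proportion to the pooled signal, filled where the peak was in both replicates' lists and open where it was not. The 4 peaks between lncRNA:CR44363 and CG7560 are filled and lie within 2854 bp, while those beside mirr and fkh are open.

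The 2 libraries each held most far intergenic peaks among their candidates. Of the 259, 251 had a candidate in both ranked lists, and across these the signals of the libraries had a Spearman correlation of 0.67, against 0.72 over all peaks of the list; both describe these libraries only, since the points share them. The median signal was 57.6 in replicate 1 and 58.1 in replicate 2. The signals were within 1.5-fold of each other for 189 peaks (75.3%) and more than 2-fold apart for 17. After each library's own IDR threshold, 105 far intergenic peaks (40.5%, interval 34.7 to 46.6%) were overlapped by a peak in both lists, against 47.3% of all other peaks and 46.8% of the whole list. A further 24 were in the list of replicate 1 only, 38 in that of replicate 2 only and 92 (35.5%) in neither, against 25.2% in neither among all other peaks. Promoter peaks had the highest share, with 55.5% in both lists. Near intergenic peaks had 40.0%, far genic peaks 39.6% and near genic peaks 42.7%. The support followed signal: with the list cut by signal into 4 equal groups, 1 of 80 far intergenic peaks in the lowest group was in both replicates' lists, 9 of 71 and 47 of 60 in the next groups, and 48 of 48 in the highest. The conservative IDR list held 204 of the 259 (78.8%, interval 73.4 to 83.3%), against 83.8% of all other peaks and 83.4% of the whole list.

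**Figure D4:**
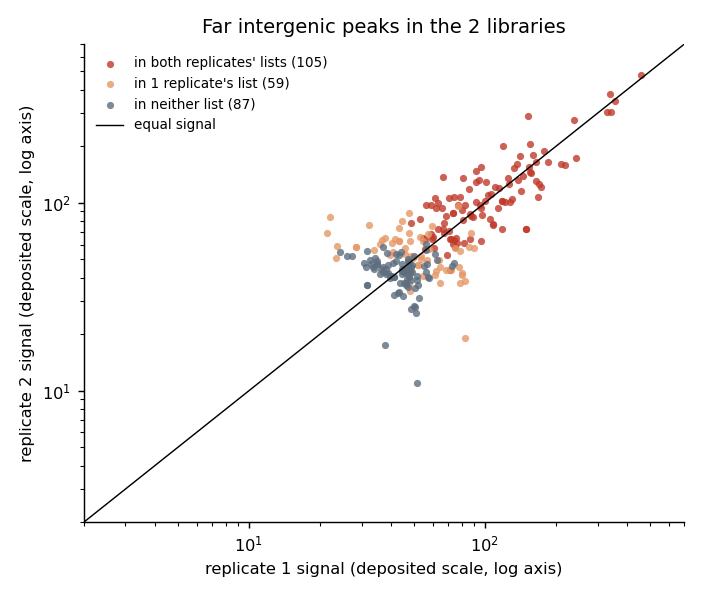
Each point is 1 of the 251 far intergenic peaks with a candidate in both libraries, with the deposited signal of replicate 1 on the horizontal axis and of replicate 2 on the vertical axis, both logarithmic, and a line at equal signal. Peaks in both replicates' lists (105) reach 458.2 and 479.8, and those in neither list sit at the low end of both axes.

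The signals of far intergenic peaks were those of peaks outside promoters in general. Their median was 113.5 (quartiles 89.5 to 175.7, range 2.22 to 945.4), against 125.8 (93.4 to 202.3) for all other peaks. It was 113.1 for near intergenic, 113.9 for far genic, 117.9 for near genic and 142.6 for promoter peaks. In its own list replicate 1 gave 80.5 for far intergenic peaks and 90.0 for all other peaks, and replicate 2 gave 84.2 and 84.3. The class made up 9.36% of the lowest of these signal groups and 5.62% of the highest. Signals under 20 were listed for 5 members, and for 95 peaks of the list.

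Far intergenic DNA held fewer peaks per length than the rest of the arms, and part of that went with the DNA next to the centromeres. It spans 20.5 Mb, or 15.3% of the arms, and held 12.6 summits per Mb, against 27.9 per Mb elsewhere on the arms and 25.5 per Mb over the arms as a whole. Without the 5 Mb next to the centromere of each large arm, 233 far intergenic peaks lay in 10.5 Mb at 22.2 per Mb, against 30.3 per Mb elsewhere, 28.6 per Mb for near intergenic, 15.9 per Mb for far genic, 21.5 per Mb for near genic and 76.4 per Mb for promoter DNA. The 9.98 Mb next to the centromeres held 26 peaks at 2.61 per Mb. Of the candidates in far intergenic DNA 259 of 16356 (1.58%, interval 1.4 to 1.79%) passed the threshold, against 2.36% of all candidates, 2.34% of near intergenic, 1.29% of far genic and 6.46% of promoter candidates. In replicate 1 the share was 0.906% of far intergenic candidates and in replicate 2 it was 1.08%, against 1.58% and 1.74% of all candidates. Soft-masked repeats made up 31.5% of far intergenic DNA and on average 18.5% of a far intergenic summit window, against 19.4% at all other peaks. Of the 259 summit windows, 13 (5.02%) were mostly masked, against 8.14% at all other peaks. Summits inside an annotated transposable element numbered 5 (1.93%), against 0.253% at all other peaks, and none of the 5 was in both lists. The class rule does not count these elements as genes, and their share of far intergenic DNA is not given here. No excess at far intergenic peaks can thus be read from the 2 percentages.

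**Figure D5:**
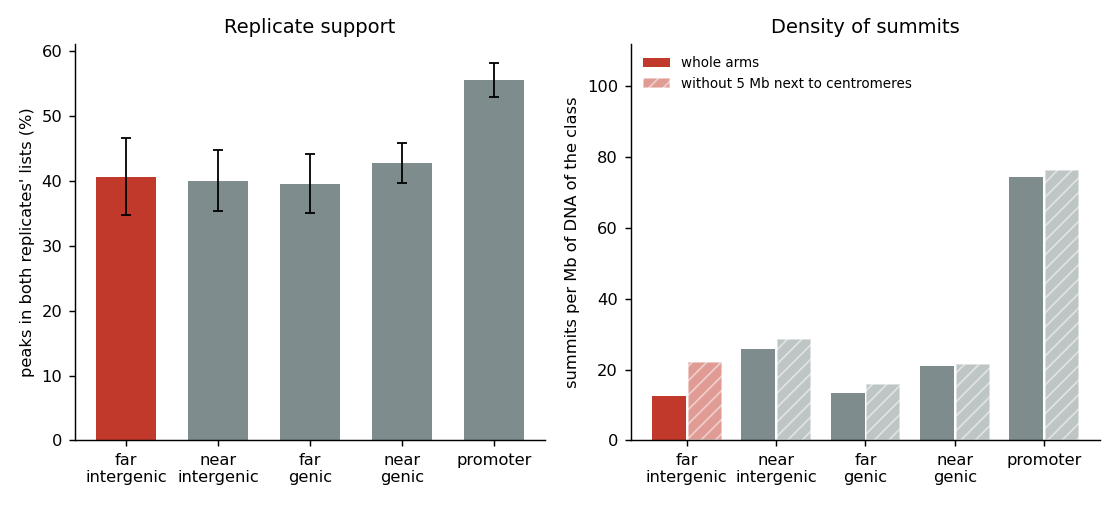
The left panel gives the percentage of peaks in both replicates' lists for 5 classes of peak, with 95% Wilson intervals, and the right panel gives summits per Mb of DNA of each class over whole arms (plain bars) and without the 5 Mb next to the centromeres (hatched bars). Far intergenic peaks, in red, had 40.5% in both lists, against 55.5% for promoter peaks, and the density in far intergenic DNA was 12.6 per Mb over whole arms and 22.2 per Mb without the centromeric stretches.

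The arms differed. Away from the centromeres the density of far intergenic peaks was 30.4 per Mb on 3L, 29.3 on 2L, 21.4 on 3R, 14.5 on 2R and 11.5 on X, with 81, 54, 55, 26 and 17 peaks. Over whole arms, peaks of all classes lay at 28.2 per Mb on 3L, 28.0 on 2L, 24.9 on 3R, 23.2 on 2R and 24.6 on X. Chromosome 4 held none in 0.153 Mb and had 1 peak in the whole list. The median distance to the nearest TSS was 9341 bp, and 141 peaks lay at 5000 to 10000 bp, 89 at 10000 to 20000 bp and 29 farther. The 3 farthest lay next to centromeres: far200 at 369.0 kb from Myo81F, far166 at 238.2 kb from CG40228 and far184 at 108.7 kb from CG41099. Their signals were 88.1, 98.5 and 92.6, and none was in both lists. The nearest TSS belonged to a protein-coding gene for 173 peaks and to a non-coding RNA gene for 80, and 52 peaks lay more than 20000 bp from any protein-coding TSS. At the distance limit, the peaks just inside lay 5015 bp (signal 315.9, far018) and 5042 bp (156.2) from a TSS, and those just outside lay 4989 bp (86.8) and 4993 bp (74.5) away.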

How the data were processed

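ChIP-seq was done on whole embryos in 2 biological replicates, per the labels. The deposited files are narrowPeak lists on dm6 from ChIP and control alignments; which aligner and peak caller made them is not stated, and depth is unknown. The deposited signal is the authors' strength relative to the control, with no stated scale, and the deposited score is a whole number up to 1000 that follows IDR; listed peaks score at least 830. Thresholded, conservative and ranked lists were read for the pooled call, and thresholded and ranked lists for each replicate. A further 16 per-replicate columns of the pooled ranked lists were not used.

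Genes came from Ensembl release 115 (dm6 coordinates) and sequence from the RefSeq genome of the same build. Lists were joined by overlap of at least 1 bp. Windows reaching 50 bp to either side of the summit were compared with windows 300 bp away on both sides, and 13 gene lists and 21 motifs were searched. Members, lists and motifs were chosen with earlier results of these data known, and CACTGA and its orientation after the windows had been read. Named peaks are the 20 strongest members, far021 beside SoxN among the listed genes, those nearest the distance limit, the 5 fullest gaps and the 3 farthest, and named genes up to 4 per list by signal; peaks far057 and far044 were added for their sequence. Symbols in the gene lists were matched to the annotation, and 6 entries that did not match were dropped. Intervals are 95% Wilson intervals. The class rule and the overlap step were tested on simulated data. Python 3.11.15, numpy 2.4.6, pandas 2.3.3 and Biopython 1.88 were used.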

Additional observations from a re-analysis of the deposited data

How the results depend on the processing

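Every result that names CACTGA, the density without masked bases or centromeric stretches, and the ranking of 8-mers by GC were chosen after the data had been seen. The number of far intergenic peaks was 445 with a limit of 2000 bp, 118 with 10000 bp, 422 with protein-coding genes only and 140 to 151 in the replicates' own lists. The ratio of far intergenic density to that of the arms, 0.495, was 0.593 at 2000 bp, 0.346 at 10000 bp, 0.636 with protein-coding genes only, 0.622 with transposable elements and pseudogenes counted as genes, 0.366 for the 500 strongest peaks, 0.594 over unmasked bases, 0.750 without the centromeric stretches and 0.424 to 0.448 in the replicates' lists. The ratio of median signals, 0.902, was 0.894 to 1.00 in the replicates' lists, so replicate 2 alone showed no lower median. With 50% reciprocal overlap 33.2% were in both lists. The share of candidates passing the threshold was 0.906 to 1.08% in single replicates. The GC difference of -6.29 points was -4.26 with windows reaching 100 bp to either side, -13.6 in members found in both lists and -12.1 to -9.85 in single replicates. Any of the 10 leading 8-mers of other peaks was in 22.0% of summits, in 42.9% with windows reaching 100 bp to either side, 29.5% of members in both lists, 23.8 to 35.7% in single replicates and 8.11% when only 8-mers with at least 3 G or C were ranked. The side windows gave 14.1%, 24.1%, 10.5%, 11.3 to 11.4% and 2.32% in the same order. The 10 leading 8-mers hold only A and T, and the summits were poorer in G and C than their sides. CACTGA was in 26.3% with windows reaching 100 bp to either side, and in 10.7 to 13.9% in single replicates. The share of copies reading toward the summit was 86.0% in members of both lists and 79.1 to 84.8% in single replicates. The cause of these differences was not tested. By the limits set for each result, 29 recomputed values moved and 29 did not. Those that did not move include some given above: the median ratio of 0.894, the 8-mer share of 23.8%, the CACTGA shares of 10.7 and 13.9% and the inward share of 79.1%. No paired analysis was possible because the samples form 1 group. Depth is unknown, so weak sites cannot be called absent.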

Other observations

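Some candidates in far intergenic DNA are missing from the thresholded list although their score reached 830: 16 of 84 such peaks on the arms lay there. Far intergenic DNA held 11.3% of all pooled candidates and 7.58% of the listed peaks, and the difference was not tested. Most of the 16 lay inside a transposable element or in the 5 Mb next to a centromere. Not all 16 were strong: 1 on X, 70578 bp from CG14621, had a signal of 19.4. The strongest of the 16, with a signal of 222.6, lay on 3L 13303 bp from UQCR-11 in fully masked sequence inside a transposable element. Others lay on 3L 209592 bp from eIF4B (151.0), on 2R 14143 bp from CG3107 (142.8) and on X 70779 bp from CG14621 (121.1).

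The 5 members inside an annotated transposable element were far105 (signal 129.6), far131 (113.5), far153 (102.3), far206 (87.1) and far223 (80.8).

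The 26 members next to centromeres had a median signal of 107.8, against 115.4 for the other 233, and 7 of them (26.9%) were in both replicates' lists, against 42.1%.

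Among the 8-mers with at least 3 G or C that were most raised at other peaks, AGGGTTAA, GATGGCGC, AGATGGCG and CACTGAGA led with others; CACTGAGA was in 8 far intergenic summit windows and in 2 of 518 side windows. The word GATGGCGC overlaps the CTCF core searched above.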
